A study of Mus musculus with 12 samples.

Results

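Endothelial cells hold on to each other through proteins at their cell borders, and the transcripts of 9 such junction proteins were examined here in cultured endothelial cells from newborn mice. The 9 genes were chosen by name as junction proteins and not by a limit on their signal. They were Cdh5, Cldn5, Cldn15, Ocln, Tjp1, F11r, Jam2, Jam3 and Gja1, out of 18193 genes with a probe set of their own on the array. Each gene was read from its probe set with the highest mean log2(signal + 16) over the 12 arrays. A signal is the background-corrected brightness of a probe set on a linear scale, and a signal of 100 was taken as the lower limit of reliable measurement. On this rule 8 of the 9 genes were tested among 10269 genes, and Ocln was not.

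The tmTNF group consisted of 4 samples of cells stably transfected with a mutant murine TNF that stays in the membrane because it cannot be cleaved, described by the labels as chronic activation. The soluble TNF group consisted of 4 samples given 20 ng/ml of soluble TNF for 4 h. The control group consisted of 4 mock-transfected samples. The cells came from wildtype animals in every group and were grown in DMEM with 10% FCS, which is a serum supplement, with glutamine and antibiotics. The label of the soluble TNF samples does not settle whether those cells were transfected as well. The labels do not say whether the 4 samples of a group were separate cultures, animals or transfected clones, so every p-value reflects how far these arrays lie apart, and that spread may be technical.

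Adherens junctions of endothelium are built on VE-cadherin, a calcium-dependent adhesion protein that binds the same protein on the neighbouring cell and catenins inside its own cell. Tight junctions seal the space between cells with claudins and occludin, which scaffold proteins of the ZO family tie to actin, and with junctional adhesion molecules (JAMs) of the immunoglobulin superfamily. Gap junctions are channels made of connexins through which small molecules pass from cell to cell. TNF is an inflammatory cytokine known to loosen endothelial barriers, in part by moving junction proteins away from the border, a change that transcript levels do not measure.

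The RefSeq table used held start-site windows for 6 of the 9 genes, in GRCm38.p6. The 250 bases before the start are shown 5′ to 3′ on the gene's strand for 4 of them. Cldn5, Cldn15 and F11r are shown because their signals moved together across arrays, and Gja1 because its signals did not move with theirs. Capitals mark matches, on either strand, to TGANTCA (a form of the AP-1 motif), AGGAAG (a form of the ETS motif), GGNNTTTCC (a form of the NF-kB motif) or TATAAA (a core promoter element). None of the matches overlapped another.
Cldn5, chr16:18776597-18776846, plus strand: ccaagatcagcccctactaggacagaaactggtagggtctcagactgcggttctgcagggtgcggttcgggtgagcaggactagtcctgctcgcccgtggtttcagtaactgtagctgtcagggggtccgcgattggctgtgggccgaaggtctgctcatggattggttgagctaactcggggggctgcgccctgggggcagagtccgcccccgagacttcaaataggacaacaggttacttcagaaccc
Cldn15, chr5:136967619-136967868, plus strand: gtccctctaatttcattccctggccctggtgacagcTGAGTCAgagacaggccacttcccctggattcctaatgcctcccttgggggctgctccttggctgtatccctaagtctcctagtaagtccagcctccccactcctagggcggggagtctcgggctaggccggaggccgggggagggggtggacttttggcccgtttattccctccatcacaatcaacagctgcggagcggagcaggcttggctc
F11r, chr1:171437311-171437560, plus strand: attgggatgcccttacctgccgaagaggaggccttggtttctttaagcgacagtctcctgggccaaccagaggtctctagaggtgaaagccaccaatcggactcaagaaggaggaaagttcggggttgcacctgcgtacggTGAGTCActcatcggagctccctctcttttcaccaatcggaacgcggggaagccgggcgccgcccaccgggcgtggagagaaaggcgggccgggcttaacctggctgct
Gja1, chr10:56377050-56377299, plus strand: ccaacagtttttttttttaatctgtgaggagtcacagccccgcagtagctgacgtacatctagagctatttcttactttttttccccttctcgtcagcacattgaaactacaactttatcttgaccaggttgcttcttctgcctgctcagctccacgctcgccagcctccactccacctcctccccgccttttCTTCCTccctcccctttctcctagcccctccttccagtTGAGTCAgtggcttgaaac

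The AP-1 form stood once in the windows of Cldn15 (208 to 214 bases before the start), F11r (103 to 109 bases) and Gja1 (13 to 19 bases), and it occurred in 6.75% of 32851 windows of 250 bases in the same table. Gja1 also held the ETS form on the opposite strand, 52 to 57 bases before its start, which 29.5% of windows held. The NF-kB form (4.93% of windows) and the core promoter element (12.4%) were not among the letters of these 4 windows. The Cldn5 window held no match to any of the 4 motifs, and neither did the windows of Tjp1 and Ocln, which are not shown. A match describes the letters only.

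The signal of endothelial markers was uneven over the 12 samples. All 22 genes of an endothelial marker list without the 9 junction genes were measured. Their summed signal was 36820 to 200033 on tmTNF arrays, 64519 to 133823 on soluble TNF arrays and 22862 to 187977 on control arrays. Control replicate 3 was the lowest of all, followed by tmTNF replicates 2 and 4. In these bulk samples, fewer endothelial cells and less endothelial RNA per cell cannot be told apart. Krt19, a keratin, was above a signal of 1000 on those 3 arrays (11494.3 and 5563.7 on tmTNF replicates 2 and 4, 7119.8 on control replicate 3) and on soluble TNF replicates 1 and 4 (3244.0 and 2801.0), and at 396.7 or less on the other 7 arrays. Krt19 belongs to a mesothelial marker list of which 4 of 15 genes were measured, while the mesothelial genes Upk3b and Wt1 lay at 45.7 or less on every array. The mesothelial sum ran from 533 to 18270 on tmTNF arrays, 589 to 4901 on soluble TNF arrays and 591 to 16146 on control arrays. The fibroblast list (6 of 11 genes on the array measured) summed to 543 to 11131, 558 to 9868 and 391 to 10699 in the same order. The sums of all lists also include genes not counted as measured. Among these, Dcn read 3276.5 and 7270.8 on tmTNF replicates 2 and 4. Col3a1, of the same list, read 18.3 and 55.9 there. It read 4119.1 and 3758.3 on soluble TNF replicates 1 and 4 and 4546.6 on control replicate 3. On control replicate 4, where Krt19 was 248.7, Col3a1 read 1900.9. Ptprc, which marks leukocytes, was at 38.8 or less throughout, and Cdh1, which marks epithelium, at 42.1 or less. The epithelial list (1 of 10 genes measured) summed to 341 to 532, 264 to 436 and 282 to 413 on tmTNF, soluble TNF and control arrays, and the leukocyte list (3 of 8) to 528 to 7295, 440 to 648 and 784 to 18698. The mural cell list (2 of 9) summed to 324 to 2293, 1081 to 1891 and 257 to 1425, and the lymphatic list (2 of 5) to 324 to 8248, 1110 to 5086 and 2751 to 7804. Of the mural 2293, on tmTNF replicate 3, Pdgfrb gave 1336.8, a gene not counted as measured. Cd68 gave 18210.0 of the leukocyte 18698, on control replicate 1, and 6727.6 of the 7295, on tmTNF replicate 1. Lyve1 gave 6850.5 of the lymphatic 7804, on control replicate 1, and 5612.2 of the 8248, on tmTNF replicate 3. The part of these other cell markers in the junction results was not tested. Tnf itself was under 100 on all 12 arrays, and it is not stated whether its probe set covers the transfected form. The Y-linked gene Eif2s3y read 496.6 or more on the tmTNF arrays and 37.9 or less on the other 8, so tmTNF and the origin of the cells cannot be told apart.

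None of the 8 tested junction genes was called as different between groups in any of the 3 comparisons, at an adjusted p of 0.05 in limma with adjustment over all 10269 genes. Calls were rare in these data: 0.195% of genes were called for tmTNF minus control, 0.039% for soluble TNF minus control and 1.22% in tmTNF minus soluble TNF. A count of 0 of 8 is close to those background shares. The groups of 4 arrays overlapped for every one of the 8 genes in every comparison, where 3.17% of all genes did not overlap between tmTNF and control, 8.11% between soluble TNF and control and 16.1% between tmTNF and soluble TNF. The median log2 fold change of the 8 genes was 0.07 for tmTNF minus control (0.03 over all genes), 0.09 for soluble TNF minus control (-0.05 over all genes) and 0.14 in tmTNF minus soluble TNF (0.08 over all genes). The lowest adjusted p of the 24 was 0.184, for Gja1 between tmTNF and soluble TNF.

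The junction genes varied widely between arrays that carry the same label. Pooled over the 3 groups, the within-group SD of log2(signal + 16) exceeded the all-gene median of 0.45 for 7 of the 8 genes, and it exceeded the 90th percentile of 1.07 for 3 of them. It was 2.77 for Cldn5, 1.68 for Cldn15, 1.17 for Jam2, 0.88 for Cdh5, 0.86 for Jam3, 0.85 for Gja1, 0.63 for F11r and 0.45 for Tjp1. Cldn5 ranked 30 from the top of the 10269 genes, and Tjp1 lay just below the median, with 49.7% of genes less variable. The median of the 8 genes was 0.87, and that of the 22 endothelial markers 1.49. By group, the median SD of the 8 genes was 1.24 in tmTNF, 0.55 in soluble TNF and 0.81 in control, against 0.42, 0.29 and 0.50 over all genes.

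**Figure D1:**
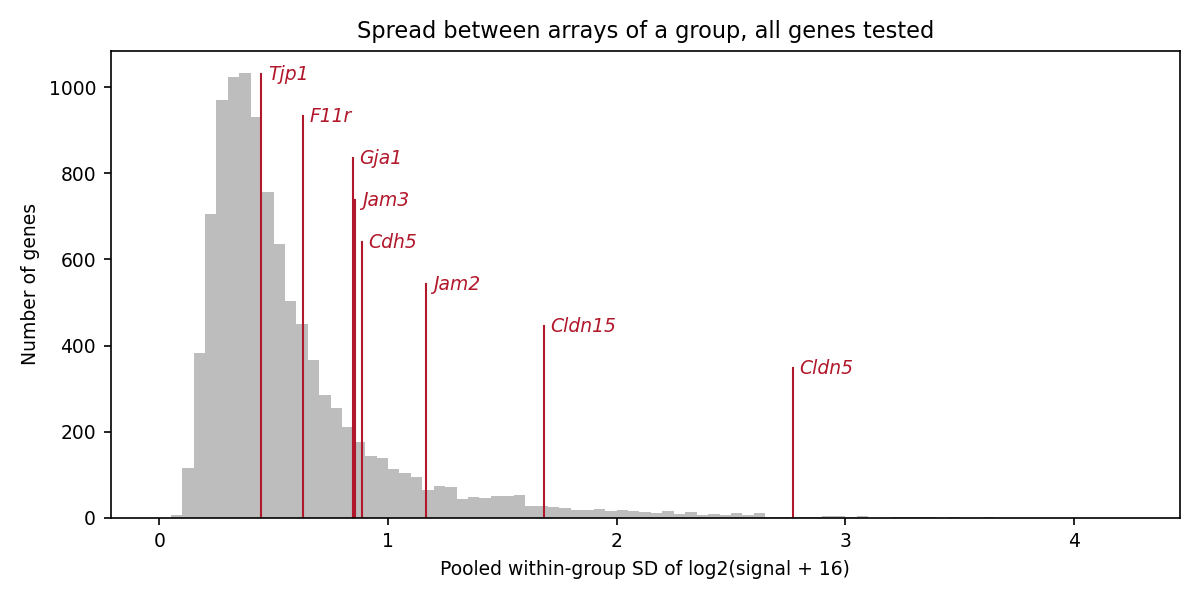
Histogram of the pooled within-group SD of log2(signal + 16) over the 10269 genes tested (grey bars, number of genes), with the 8 tested junction genes marked by red lines whose heights only separate the names. Tjp1 (0.45) lies at the bulk of the genes, and Cldn15 (1.68) and Cldn5 (2.77) lie in the far tail.

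Cdh5 (probe set 1433956_at, chromosome 8) encodes VE-cadherin, the adhesion protein of endothelial adherens junctions and a defining endothelial gene. Its signals were 10329.6, 2667.8, 5432.1 and 1374.3 on tmTNF replicates 1 to 4. They were 4010.3, 4552.7, 5699.4 and 4090.7 on soluble TNF replicates 1 to 4, and 2815.1, 7305.2, 2200.1 and 6333.4 on control replicates 1 to 4. The soluble TNF arrays lay close together, within a range of 1.42-fold, while the tmTNF arrays spanned 7.52-fold and the control arrays 3.32-fold, and the soluble TNF values lay inside both other ranges. The log2 fold change was -0.12 ± 0.55 (SE) for tmTNF minus control, with a 95% interval of -1.32 to 1.08. It was 0.14 ± 0.55 for soluble TNF minus control (interval -1.06 to 1.34) and -0.26 ± 0.55 in tmTNF minus soluble TNF (interval -1.46 to 0.94), with adjusted p of 0.984, 0.938 and 0.83. Another Cdh5 probe set was also measured and gave 0.29 ± 0.62, 0.32 ± 0.62 and -0.03 ± 0.62 in the same order, so the 2 probe sets differed in sign between tmTNF and control. On that other probe set the soluble TNF arrays did not lie close together, at 148.1, 616.3, 706.3 and 297.7 on replicates 1 to 4. Its tmTNF arrays read 132.8 to 826.3 and its control arrays 131.4 to 510.4. Without tmTNF replicates 2 and 4 and control replicate 3, the value of the first probe set for tmTNF minus control was 0.56. These were the arrays with the lowest Cdh5 signals of the tmTNF and control groups.

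Cldn5 (probe set 1417839_at, chromosome 16) encodes claudin 5, the main claudin of endothelial tight junctions, best known from the blood-brain barrier. Its signals were 12912.6, 498, 21554.4 and 290.1 on tmTNF replicates 1 to 4. They were 594, 5607.2, 9553.1 and 1360.5 on soluble TNF replicates 1 to 4, and 1056.3, 13356.9, 77.8 and 5254.1 on control replicates 1 to 4. Every group held arrays at high and at low signal. The highest array was 74.3 times the lowest in tmTNF, 16.1 times in soluble TNF and 171.7 times in control, and tmTNF replicate 3 was 277.1 times control replicate 3, the 1 array on which Cldn5 was under 100. The low arrays included the 5 with Krt19 above 1000, together with control replicate 1, which had a Krt19 signal of 165.9. The group means of log2(signal + 16) were 11.33 ± 3.14 in tmTNF, 11.34 ± 1.82 in soluble TNF and 10.67 ± 3.13 in control (SD, n = 4 each).

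The log2 fold change of Cldn5 was 0.66 ± 1.70 (SE) for tmTNF minus control, 0.67 ± 1.70 for soluble TNF minus control and -0.01 ± 1.70 in tmTNF minus soluble TNF (adjusted p of 0.963, 0.900 and 0.997). The intervals reached from -3.03 to 4.35, from -3.02 to 4.36 and from -3.70 to 3.68, so the last of them left room for anything between 0.0769-fold and 12.8-fold. Single arrays turned the direction: tmTNF minus soluble TNF was 1.01 without tmTNF replicate 4 and -1.03 without tmTNF replicate 3. Without tmTNF replicates 2 and 4 and control replicate 3 it was 2.69 (adjusted p = 0.224). Without the 5 arrays with Krt19 above 1000 it was 1.19 (adjusted p = 0.619). The first omission took out the tmTNF arrays lowest in Cldn5 and no soluble TNF array, so it could only raise this value.

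Cldn15 (probe set 1418920_at, chromosome 5) encodes claudin 15, best known as a cation pore of the gut lining. Its signals were 5135.0, 660.0, 4948.3 and 930.4 on tmTNF replicates 1 to 4. They were 1099.1, 1767.6, 2582.9 and 772 on soluble TNF replicates 1 to 4, and 3857.7, 8462.2, 179.4 and 2138.6 on control replicates 1 to 4. The same tmTNF arrays, replicates 1 and 3, were high for Cldn15 and Cldn5, and control replicate 3 was the lowest of the 12 arrays for both. The log2 fold change was 0.06 ± 1.03 (SE) for tmTNF minus control, -0.44 ± 1.03 for soluble TNF minus control and 0.50 ± 1.03 in tmTNF minus soluble TNF (adjusted p of 0.997, 0.889 and 0.823). The intervals were -2.19 to 2.31, -2.69 to 1.81 and -1.75 to 2.75. Leaving out control replicate 3 moved the first 2 values to -1.04 and -1.54.

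Ocln (probe set 1440220_at, chromosome 13) encodes occludin, a 4-pass membrane protein of tight junctions. Neither of its 2 probe sets reached a signal of 100 on any array. The brighter one read 13.1 to 59.8 on tmTNF arrays, 6.08 to 48.2 on soluble TNF arrays and 6.28 to 84.0 on control arrays. The groups overlapped below the limit, so no fold change is given. The Ocln signal was not well above background in these cells.

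Tjp1 (probe set 1417749_a_at, chromosome 7) encodes ZO-1, the scaffold that links tight junction proteins to actin. Its signals were 5463.1, 3657.8, 6001.9 and 2830.5 on tmTNF replicates 1 to 4. They were 2879.1, 4226.6, 4773.9 and 2998.5 on soluble TNF replicates 1 to 4, and 2454.5, 5267.1, 4238.2 and 4030.4 on control replicates 1 to 4. Over all 12 arrays the highest was 2.45 times the lowest, while the endothelial marker sum spanned 8.75-fold, and control replicate 3, lowest in that sum, was second highest of the control arrays for Tjp1. For Tjp1 the log2 fold change was 0.15 ± 0.30 (SE) for tmTNF minus control, -0.09 ± 0.30 for soluble TNF minus control and 0.24 ± 0.30 in tmTNF minus soluble TNF (adjusted p of 0.955, 0.928 and 0.688). Tjp1 had the narrowest intervals of the 8 genes, -0.49 to 0.80, -0.73 to 0.56 and -0.41 to 0.89, which together run from 0.602-fold to 1.85-fold.

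F11r (probe set 1424595_at, chromosome 1) encodes JAM-A, an adhesion protein of tight junctions that also takes part in leukocyte passage. Its signals were 9605.3, 3886.2, 9111.2 and 4525.5 on tmTNF replicates 1 to 4. They were 2827.4, 6783.9, 6927.9 and 3557.3 on soluble TNF replicates 1 to 4, and 3815.6, 6071.4, 2382.3 and 3649.3 on control replicates 1 to 4. All 4 tmTNF arrays lay above 3 of the 4 control arrays, and control replicate 2 lay among the tmTNF values. In F11r the log2 fold change was 0.73 ± 0.40 (SE) for tmTNF minus control (interval -0.14 to 1.60, adjusted p = 0.748). It was 0.31 ± 0.40 for soluble TNF minus control (interval -0.56 to 1.18, adjusted p = 0.784) and 0.42 ± 0.40 in tmTNF minus soluble TNF (interval -0.45 to 1.29, adjusted p = 0.584). The order of the group means was tmTNF, soluble TNF, control, and neighbours in it did not differ beyond their spread. The sign of tmTNF minus control was the same under all 26 alternatives, from 0.51 to 1.09. Some of them could not move the value. Leaving out a soluble TNF array does not touch it, and only 1 F11r probe set was measured.

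Jam2 (probe set 1449408_at, chromosome 16) encodes JAM-B, a partner of JAM-C at endothelial borders. Its signals were 1065.4, 288.7, 415.6 and 390.0 on tmTNF replicates 1 to 4. They were 465.5, 160.0, 909.5 and 643.7 on soluble TNF replicates 1 to 4, and 2102.7, 234.1, 177.5 and 446.2 on control replicates 1 to 4. Control replicate 1 stood highest on this probe set, and on another measured Jam2 probe set, where it read 704.8. On the remaining measured Jam2 probe sets soluble TNF replicate 3 was highest. It read 1375.2 and 624.3 on them, against 448.9 and 253.9 on control replicate 1, so the highest array depended on the probe set. Control replicate 1 also had the highest signals of Cd68 (18210.0), Vwf (1612.2) and Lyve1 (6850.5). These are genes of macrophages, of endothelial storage granules and of lymphatic endothelium. Other genes of the leukocyte and lymphatic lists were under 100 there, namely Ptprc (22.3), Itgam (29.8), Adgre1 (82.4), Prox1 (33.8) and Pdpn (50.9). Csf1r read 183.2 there and 183.5 on tmTNF replicate 3. Control replicate 3 had Cd68 at 2284.9 and Lyve1 at 4853.3, with Jam2 at 177.5. The part of other cells in the Jam2 signal was not tested. The log2 fold change was 0.07 ± 0.73 (SE) for tmTNF minus control, 0.03 ± 0.73 for soluble TNF minus control and 0.04 ± 0.73 in tmTNF minus soluble TNF (adjusted p of 0.994, 0.992 and 0.981). The intervals were -1.51 to 1.66, -1.55 to 1.62 and -1.55 to 1.63. Of the 5 Jam2 probe sets 4 were measured, and their values for tmTNF minus control ran from -0.46 to 0.07, with no agreement on a sign.

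Jam3 (probe set 1423503_at, chromosome 9) encodes JAM-C, which binds JAM-B. Its signals were 1547.7, 285.2, 1575.7 and 415.5 on tmTNF replicates 1 to 4. They were 428.5, 586.3, 611.8 and 521.8 on soluble TNF replicates 1 to 4, and 779.9, 1736.6, 476.4 and 713.1 on control replicates 1 to 4. The soluble TNF arrays lay close together (within 1.43-fold), as they did on 1 of the 2 Cdh5 probe sets. In Jam3, tmTNF replicates 1 and 3 lay above and tmTNF replicates 2 and 4 below all soluble TNF arrays. Jam3 had a log2 fold change of -0.16 ± 0.54 (SE) for tmTNF minus control, -0.62 ± 0.54 for soluble TNF minus control and 0.46 ± 0.54 in tmTNF minus soluble TNF (adjusted p of 0.969, 0.656 and 0.670). The intervals were -1.34 to 1.02, -1.80 to 0.56 and -0.72 to 1.64. Without tmTNF replicates 2 and 4 and control replicate 3, tmTNF minus soluble TNF was 1.53 (adjusted p = 0.0715, the lowest over the 26 alternatives). That omission took out the tmTNF arrays lowest in Jam3 and no soluble TNF array, so it could only raise the value.

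Gja1 (probe set 1437992_x_at, chromosome 10) encodes connexin 43, a gap junction channel subunit. Its signals were 4899.5, 3134.5, 672.6 and 2861.9 on tmTNF replicates 1 to 4. They were 4767.2, 9670.7, 5337.6 and 5594.6 on soluble TNF replicates 1 to 4, and 7408.1, 4495.6, 2687.3 and 6568.1 on control replicates 1 to 4. The tmTNF arrays lay below the soluble TNF arrays except for tmTNF replicate 1, which was just above soluble TNF replicate 1, and tmTNF replicate 3 was far the lowest of the 12. The mean log2 values were 11.20 ± 1.23 in tmTNF, 12.58 ± 0.45 in soluble TNF and 12.27 ± 0.66 in control (SD, n = 4 each).

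The log2 fold change of Gja1 was -1.38 ± 0.53 (SE) in tmTNF minus soluble TNF, a 2.6-fold lower mean in tmTNF, with an interval of -2.53 to -0.22 and an adjusted p of 0.184. It was -1.07 ± 0.53 for tmTNF minus control (interval -2.22 to 0.08, adjusted p = 0.699) and 0.31 ± 0.53 for soluble TNF minus control (interval -0.85 to 1.46, adjusted p = 0.845). The order was soluble TNF, control, tmTNF, and no pair in it passed the threshold. The lowest adjusted p over the 26 alternatives was 0.0694, with array weights, for tmTNF minus soluble TNF. Without tmTNF replicate 3, the values in tmTNF minus soluble TNF and tmTNF minus control were -0.79 and -0.48. Gja1 had 6 measured probe sets. In 5 of them tmTNF minus soluble TNF ran from -1.38 to -0.95 (adjusted p from 0.129 to 0.382 over all probe sets kept) and tmTNF minus control from -1.12 to -0.96. The sixth, set apart after its values were seen and with signals of 30.5 to 325.4, gave -0.13 ± 0.55 and 0.80 ± 0.55 in the same comparisons. On one of the 5, chosen after its values were seen, the signals were 3465.1, 3361.5, 845.2 and 2494.7 on tmTNF replicates 1 to 4, against 4696.5, 8752.8, 4803.4 and 5019.1 on soluble TNF replicates 1 to 4, and these groups did not overlap. They overlapped on the other 5 Gja1 probe sets, and 16.1% of all genes did not overlap in this comparison. Probe sets of this kind of array whose name ends in x_at can bind related transcripts, and 4 of the 6 Gja1 probe sets, among them the one used, carry that ending.

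**Figure D2:**
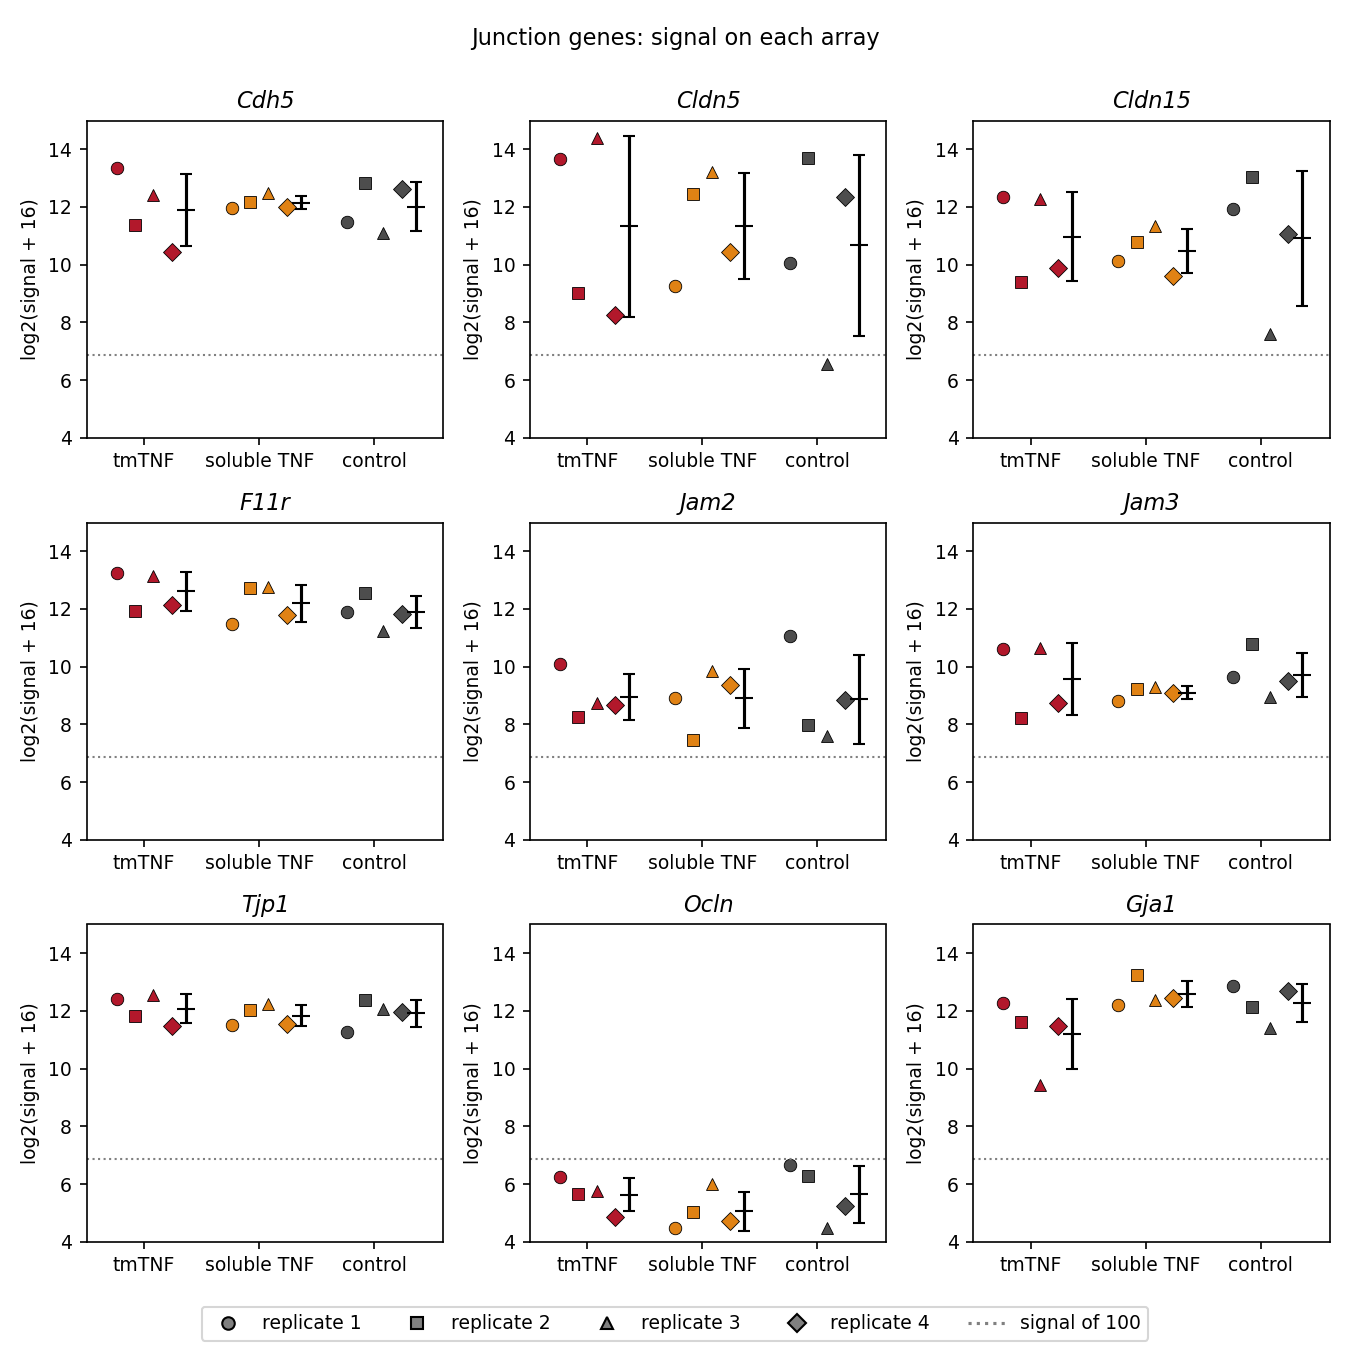
Signal of each junction gene on each array as log2(signal + 16), in tmTNF (red), soluble TNF (orange) and control (grey). Marker shapes stand for replicates 1 to 4, black bars for the mean ± SD of 4 arrays, and the dotted line for a signal of 100. Cldn5 and Cldn15 spread widely within single groups, 171.7-fold and 47.2-fold in control. Tjp1 stays within 2.45-fold, and every Ocln point is under the dotted line.

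**Figure D3:**
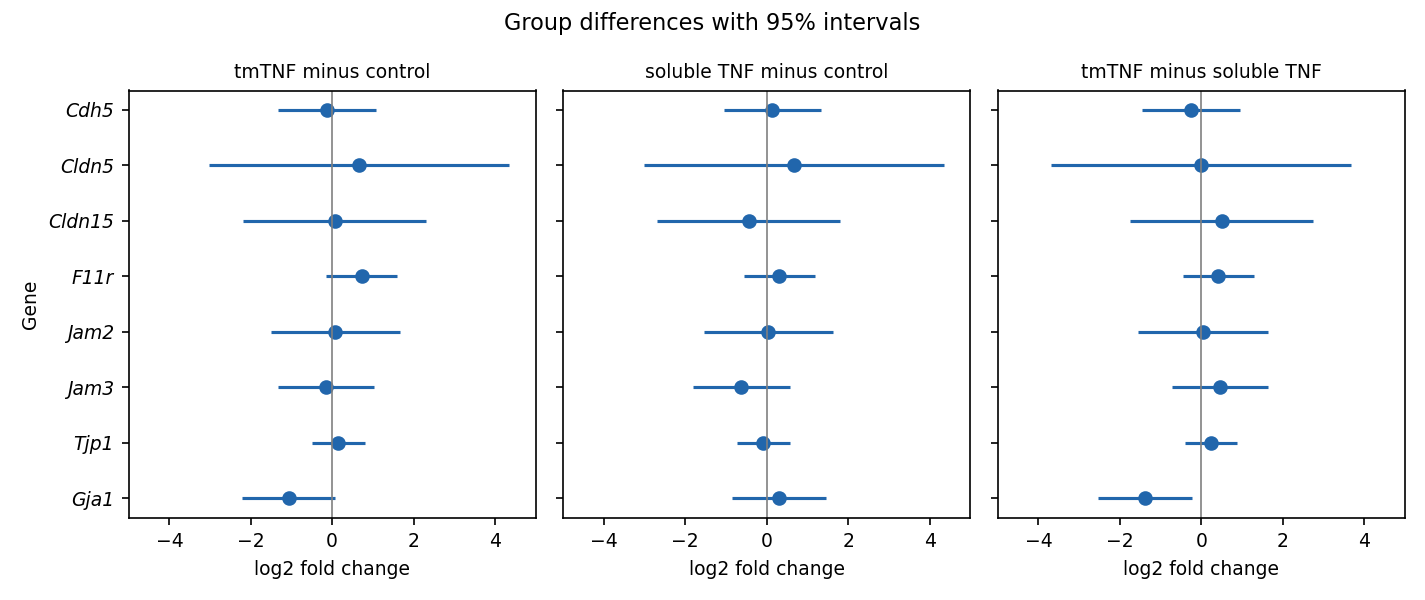
Log2 fold change of log2(signal + 16) values (points) with 95% intervals (lines) for the 8 tested junction genes in the 3 comparisons, from the fit over all genes. Only the line of Gja1 in tmTNF minus soluble TNF, at -2.53 to -0.22, does not reach 0, with an adjusted p of 0.184.

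Several junction genes went up and down together over the arrays. Among Cdh5, Cldn5, Cldn15, F11r and Jam3, a set picked after seeing the values, Pearson's r of log2(signal + 16) was 0.60 to 0.87 in the 10 pairs. Cldn5 and Cldn15 gave 0.87, and Cldn5 and Cdh5 gave 0.86. Jam2 gave -0.29 to 0.40 with the other 7 genes, and Gja1 -0.39 to 0.20. Tjp1, which was not put in the set, gave 0.67 with Cdh5, 0.69 with Cldn5, 0.69 with F11r and 0.66 with Jam3, but 0.42 with Cldn15, -0.29 with Jam2 and -0.39 with Gja1. These are descriptions over 12 arrays of 3 groups, in which both genes of a pair are read from the same RNA sample, and the part of cell content in them was not tested.

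The genes whose profile over the 12 arrays was most like that of a junction gene were listed by Pearson's r among all genes tested. For Cdh5 they were Notch4 (0.942), a Notch receptor of endothelium, Glyr1 (0.932) and Pcdh12 (0.904), a protocadherin of endothelium. For Cldn5 they were Gimap5 (0.956), Prcp (0.953) and Galnt18 (0.951). For Cldn15 they were Bace2 (0.979), Ushbp1 (0.979) and Rapgef5 (0.968), and for Jam3 they were Ttyh1 (0.960), Mark4 (0.953) and Mapk12 (0.951). F11r was most like Rbks (0.917), Adarb1 (0.915) and Ctnnb1 (0.912), the last of which encodes beta-catenin, the partner of cadherins. Tjp1 gave Polg (0.910), Abca1 (0.891) and Zfp975 (0.887), Gja1 gave Polr2c (0.930), Tarsl2 (0.905) and Pigt (0.900), and Jam2 gave lower values with Setd7 (0.860), Sec24b (0.826) and Mfn1 (0.816).

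**Figure D4:**
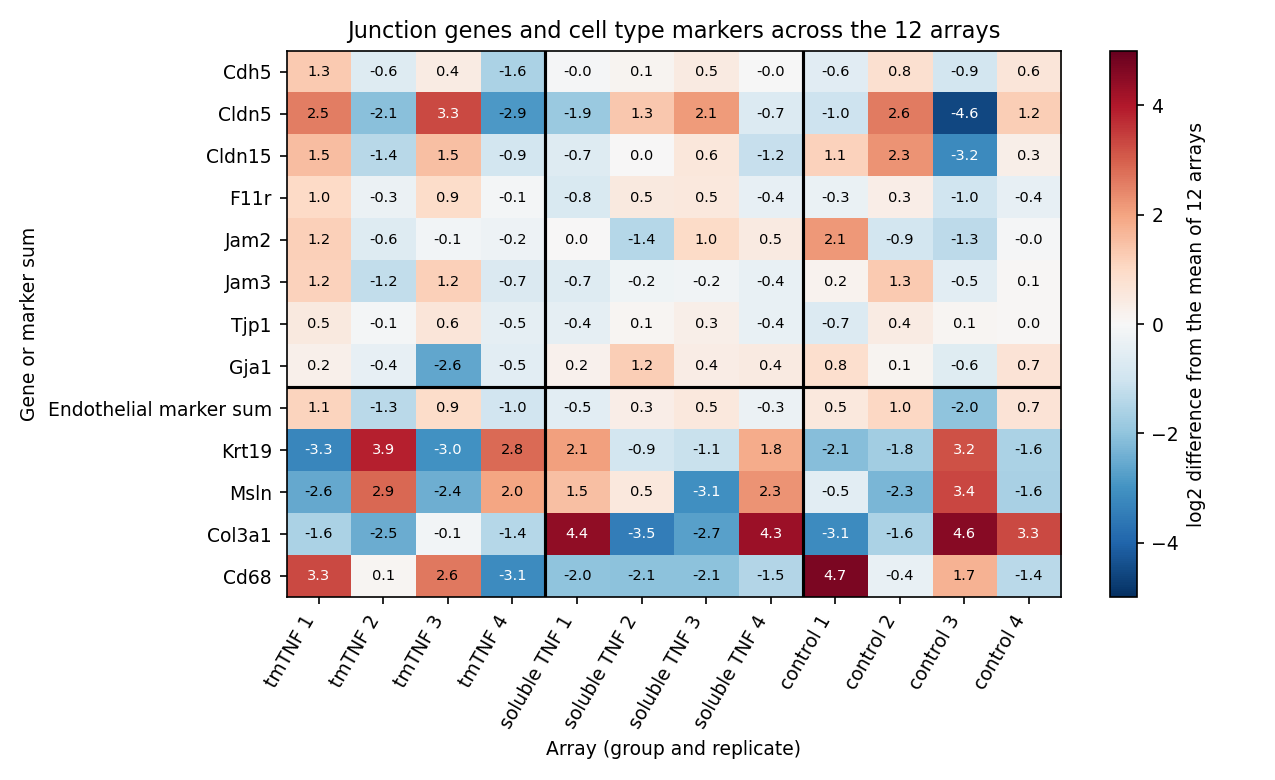
Each cell gives the log2 difference of a junction gene (above the line), of the summed signal of 22 endothelial markers or of a marker of other cells (below it) from its own mean over the 12 arrays, for log2(signal + 16) of genes and log2 of the sum. Blue Cldn5 and Cldn15 cells on tmTNF replicates 2 and 4 and control replicate 3 stand over red Krt19 and Msln cells, Msln being a mesothelial gene that read 2460.4, 1288.5 and 3412 there. Msln also read 937.6 and 1578.1 on soluble TNF replicates 1 and 4, and 467.2 or less on the other 7 arrays.

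Beyond the 9 genes, a wider list of 78 junction genes had 71 on the array, of which 33 were measured. Only 2 of its 16 claudins on the array and 3 of its 7 connexins reached the limit for testing. None of the 33 was called in any comparison. Groups did not overlap for 0 of 33 between tmTNF and control, 3 of 33 (9.09%) between soluble TNF and control and 4 of 33 (12.1%) between tmTNF and soluble TNF, beside 3.17%, 8.11% and 16.1% of all genes. The median log2 fold change of the 33 was -0.11, 0.12 and -0.36 in those comparisons, against 0.03, -0.05 and 0.08 over all genes.

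The 3 genes with the smallest p among the 33 in each comparison were taken for description. Vcl, which encodes vinculin, an actin linker at junctions under tension, read 7156.5, 3290.5, 3051.1 and 6330.4 on tmTNF replicates 1 to 4, 9511.5, 9952.1, 10925.1 and 8474.0 on soluble TNF replicates 1 to 4 and 4705.2, 4812.5, 4731.7 and 6904.6 on control replicates 1 to 4. All soluble TNF arrays lay above all others. Its log2 fold change was 0.89 ± 0.27 (SE) for soluble TNF minus control (adjusted p = 0.268) and -1.06 ± 0.27 in tmTNF minus soluble TNF (adjusted p = 0.0712).

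Pard6a, a polarity protein of the Par complex, was the reverse, with 226.6, 269.1, 234.5 and 216.4 on soluble TNF replicates 1 to 4, below every tmTNF array (496.2 to 935.5) and every control array (276.8 to 798.7). Its value was -1.07 ± 0.33 for soluble TNF minus control (adjusted p = 0.277) and 1.33 ± 0.33 in tmTNF minus soluble TNF (adjusted p = 0.071). Prkci, the atypical protein kinase C of that complex, had 0.81 ± 0.28 for soluble TNF minus control (adjusted p = 0.297), with soluble TNF arrays at 1793.5 to 2893.7 above control arrays at 1216.3 to 1551.6. Ctnna1, which encodes alpha-catenin, the link from cadherin complexes to actin, had -0.55 ± 0.17 in tmTNF minus soluble TNF (adjusted p = 0.12) and -0.36 ± 0.17 for tmTNF minus control (adjusted p = 0.667). The other genes with the smallest p for tmTNF minus control were the connexin gene Gjc1 (-0.97 ± 0.47, adjusted p = 0.688) and Pkp1, a plakophilin of desmosomes (1.68 ± 0.95, adjusted p = 0.763).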

How the data were processed

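RNA of 12 samples, 4 per group, was hybridised to 1 Affymetrix mouse array each. Per the submitters' processing notes the deposited signal intensities, linear and 1 per probe set and array, were made with MAS5, whose version is not given in the sources used here. Every array had a 2% trimmed mean of 1000. Scanner files and detection flags were not used here, and no array was left out or imputed. The 64 control probe sets were set aside, each array was brought to a 2% trimmed mean of 500, and values were analysed as log2(signal + 16), a scale that understates changes of dim genes. Probe sets with at least 4 arrays at 100 or more were kept, the brightest per gene, which left 10269 genes. Gene symbols came from the platform annotation, in which 34945 of 45101 probe sets have 1 symbol.

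One limma model (version 3.58.1, R 4.3.3) held all 3 groups (eBayes with intensity trend, two-sided, Benjamini-Hochberg adjustment, threshold 0.05), after a test on simulated data. SE and 95% intervals are from this fit, and intervals are not adjusted for the number of genes. The 4 arrays per group limit the precision. The members, the wider junction list and the marker lists were chosen with earlier results of these data known. Named were the 9 members, the called genes of the wider list or the 3 with the smallest p, and the 3 genes most like each member, with predicted genes passed over. Krt19, Msln, Eif2s3y, Cd68, Vwf and Lyve1 were named after their values were seen, as were the other marker list genes set beside them. Alternatives were 3 other scalings, pseudocounts of 1 and 64, no filter, a filter at 250, 2 other choices of probe set, no trend, array weights, models of 2 groups, each array left out and 2 sets of arrays left out.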

Additional observations from a re-analysis of the deposited data

How the results depend on the processing

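None of the 8 tested junction genes was called in any of the 3 comparisons under any of the 26 alternatives. Of the 624 log2 fold changes this gave, 70 had the opposite sign to the value reported. Of the 24 values, 9 never changed sign, among them all 3 of Gja1. Some alternatives cannot move a value, such as no trend or leaving out an array of the third group, so these counts overstate the agreement. For tmTNF minus control, Cdh5 was 0.087 with the mean of its probe sets and 0.291 with the most variable one. It was 0.562 without the 3 arrays lowest in endothelial markers. The 5 with Krt19 above 1000 are these 3 and soluble TNF replicates 1 and 4. Leaving out the 5 therefore had to give the same value for tmTNF minus control. The set of 5 was chosen after seeing the data, and the set of 3 also rests on signals of these data. Jam3 was 0.650 without the 3 arrays, and for the same reason also without the 5. Array weights gave -0.068 for Cldn5 and -0.154 for Cldn15, and equal array medians -0.084 for Cldn15. Jam2 was -0.028 with quantile normalization, -0.070 with equal medians, -0.112 with the mean of probe sets and -0.460 with the most variable one. For soluble TNF minus control, array weights gave -0.159 for Cdh5, -0.748 for Cldn5 and -0.049 for F11r, and equal medians 0.002 for Tjp1. Without the 3 arrays Cdh5 was -0.158, Cldn5 -0.705 and Jam2 -0.392, and without the 5 arrays Jam2 was -0.633 and Tjp1 0.265. The most variable probe set gave -0.183 for Jam2. For tmTNF minus soluble TNF, Cdh5 was 0.720 without the 3 arrays and 0.555 without the 5, and Cldn5 was 2.687 and 1.187. A pseudocount of 64 gave 0.032 for Cldn5 and array weights 0.680. Jam2 was -0.112 with quantile normalization, -0.188 with equal medians, -0.231 with the mean of probe sets, -0.276 with the most variable one and -0.152 with array weights. Leaving out each array in turn gave, for tmTNF minus control, -0.599 to 0.367 (Cdh5), -0.716 to 1.681 (Cldn5), -1.040 to 0.773 (Cldn15), -0.062 to 0.354 (Tjp1), -0.352 to 0.799 (Jam2) and -0.517 to 0.284 (Jam3). For soluble TNF minus control it gave -0.158 to 0.417 (Cdh5), -0.705 to 1.680 (Cldn5), -1.542 to 0.271 (Cldn15), -0.301 to 0.064 (Tjp1) and -0.392 to 0.759 (Jam2). For tmTNF minus soluble TNF it gave -0.740 to 0.225 (Cdh5), -1.033 to 1.013 (Cldn5) and -0.440 to 0.359 (Jam2). Equal medians moved the median of all genes to -0.118 in tmTNF minus control and -0.149 in tmTNF minus soluble TNF. Over all genes, 20 were called for tmTNF minus control, 16 to 66 with 1 array left out (66 without tmTNF replicate 1), 4 without the 3 arrays and 0 without the 5. For soluble TNF minus control 4 were called, 0 to 22 with 1 array left out (0 without soluble TNF replicate 1, 22 without control replicate 4), 2 with these groups fitted alone, 17 without the 3 arrays and 1 without the 5. For tmTNF minus soluble TNF 125 were called, 28 to 233 with 1 array left out (28 without soluble TNF replicate 2, 233 without control replicate 1), 239 with equal medians, 1176 with array weights, 439 with these groups fitted alone and 1 without the 5. The 3 and 5 arrays left out reduce the arrays per group, and the 3 come from tmTNF and control only. Otherwise the cause was not tested. No paired analysis was possible because the replicate numbers follow accession order and pair no samples.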
